A study of Mus musculus with 6 samples.

Results

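The fused-type S100 genes Flg (filaggrin), Flg2 (filaggrin-2), Hrnr (hornerin), Rptn (repetin), Tchh (trichohyalin), Tchhl1 (trichohyalin-like 1) and Crnn (cornulin) were examined as a family, chosen by gene name, in the epidermis of mouse embryos. All 7 were among the 30386 genes of the expression table, and 5 of them (Flg, Flg2, Hrnr, Rptn and Tchh) were among the 7464 genes expressed highly enough to be tested. The epidermis was taken from back skin at E18.5, shortly before birth, after an overnight Dispase digest that lifts it off the dermis, and was dissociated with Accutase. One group was wild type (WT, 3 libraries) and the other carried the genotype labelled p63alphaKO (3 libraries), in which the alpha isoforms of the transcription factor p63 are named as the target. The sources used here give neither the strain nor the design of the allele, nor do they state that each library came from a separate embryo, so p-values measure only the spread between these libraries. Sequencing reads came from the 3' ends of transcripts, and levels are in CPM, the reads of a gene scaled to a fixed library total, at 2564407 to 4474764 reads per library.

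Fused-type S100 proteins join a pair of calcium-binding EF hands, of the kind found in single S100 proteins, to a long stretch of tandem repeats. Filaggrin is stored in the keratohyalin granules of the granular layer as a large precursor, which is cut into monomers that bundle keratin filaments and are then broken down to the amino acids that keep the stratum corneum moist. Its relatives are deposited in the cornified envelope of the epidermis, or, in the case of trichohyalin, in the inner root sheath and medulla of the hair follicle, where they are crosslinked by transglutaminases and deiminated by peptidylarginine deiminases.

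The family was a single block of the genome. On mm10 the 7 genes lay between positions 93144787 and 93471980 of chromosome 3, all on the plus strand, in the order Crnn, Flg2, Flg, Hrnr, Rptn, Tchh, Tchhl1. The gaps between neighbours ran from 19.7 kb (Tchh to Tchhl1) to 60.1 kb (Hrnr to Rptn). Of 11 other annotated genes inside this interval, 0 were protein coding, and 1 was matched in the expression table, where it was listed at 0 in every library. The annotation placed no exon of a member opposite an exon of an antisense gene. An exon of Rptn overlaps one of the same-strand gene Gm37857, and the sources used here do not say to which gene shared reads were assigned.

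The promoters of the tested members are shown because their genes lie side by side and were measured at very different levels. Each line gives the 120 bases before the start of the RefSeq gene model on GRCm38.p6, 5′ to 3′. The capitals mark TGANTCA (N is any base), searched under the name AP-1, and the TATA motif TATAA.
Flg, chr3:93273426-93273545, plus strand: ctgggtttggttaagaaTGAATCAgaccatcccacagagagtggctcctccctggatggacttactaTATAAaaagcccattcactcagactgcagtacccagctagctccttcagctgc
Flg2, chr3:93197153-93197272, plus strand: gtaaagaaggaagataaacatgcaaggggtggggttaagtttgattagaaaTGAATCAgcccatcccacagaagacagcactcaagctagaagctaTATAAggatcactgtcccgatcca
Hrnr, chr3:93319629-93319748, plus strand: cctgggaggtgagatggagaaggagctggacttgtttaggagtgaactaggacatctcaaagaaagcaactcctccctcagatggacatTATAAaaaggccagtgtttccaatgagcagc
Rptn, chr3:93393579-93393698, plus strand: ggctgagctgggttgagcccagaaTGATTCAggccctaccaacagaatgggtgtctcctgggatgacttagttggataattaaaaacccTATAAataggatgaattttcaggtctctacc
Tchh, chr3:93442210-93442329, plus strand: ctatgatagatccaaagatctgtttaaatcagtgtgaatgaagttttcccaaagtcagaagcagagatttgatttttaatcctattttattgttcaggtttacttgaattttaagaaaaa
Searched on both strands over windows from 250 bases before to 50 bases after the start, TGANTCA was found in 5 of the 7 members and in 7.81% of all 32851 promoter windows of that length. The 5 were Flg, Flg2, Rptn, Crnn and Tchhl1, with the first base of the match 103, 69, 96, 96 and 87 bases before the start. All 5 carried the form TGAATCA, which Rptn reads from the opposite strand as TGATTCA, so none had C or G at the N. This form, singled out after the sequences were seen, occurred in 2.81% of all windows. Hrnr and Tchh held no match in this window. TATAA was found on the gene's own strand within the printed bases of Flg, Flg2, Hrnr and Rptn, but not in those of Tchh. Over the longer windows and both strands it was found in all 7 members and in 24.9% of all windows. The decamer bound by the p53 family, to which p63 belongs, was searched by name and matched in Crnn, Flg2 and Hrnr, against 8.36% of all windows. These matches describe letters, not bound sites.

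In WT and p63alphaKO epidermis alike, filaggrin, hornerin and filaggrin-2 dominated the family. Flg held rank 4 among all genes by mean level, Hrnr rank 14 and Flg2 rank 32, whereas Tchh held rank 953 and Rptn rank 4663. None of the 5 tested members passed the test between genotypes (limma, Benjamini-Hochberg adjusted p under 0.05), beside 1.65% of all tested genes. Rptn came nearest, at 2.22-fold higher in p63alphaKO, and was the one tested member whose groups did not overlap, beside 21.0% of all tested genes (7.60% counting only those higher in p63alphaKO). Rptn was also the one tested member with an unadjusted limma p under 0.05, beside 15.6% of tested genes.

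**Figure D1:**
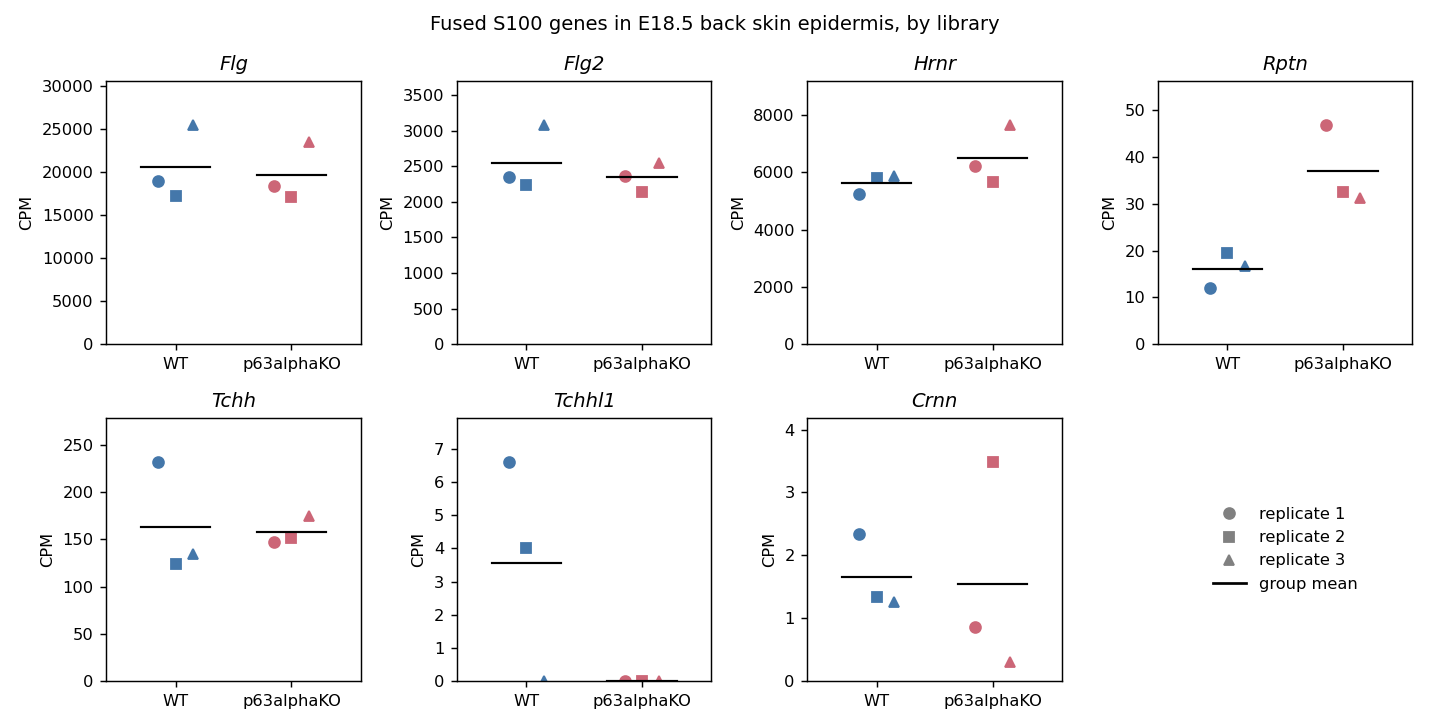
Levels of the 7 fused-type S100 genes in each library, in CPM on linear axes that start at 0, for WT (blue, 3 libraries) and p63alphaKO (red, 3 libraries); the symbol shape gives the replicate and the line the group mean. The groups overlap for Flg, Flg2, Hrnr, Tchh and Crnn, while the Rptn points run from 12.08 to 19.43 CPM in WT but from 31.32 to 46.86 CPM in p63alphaKO.

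Flg (ENSMUSG00000102439, chr3:93273523-93293686, with 10 annotated transcripts) encodes profilaggrin. Its level was 18961, 17246 and 25462 CPM in WT replicates 1, 2 and 3, and 18384, 17068 and 23474 CPM in p63alphaKO replicates 1, 2 and 3. Replicate 3 was the highest library in each group, and the groups overlapped almost completely. The mean was 20556 ± 4334 CPM in WT against 19642 ± 3383 CPM in p63alphaKO (SD, n = 3 each). The log2 fold change on the log2(CPM + 1) scale, with positive values for higher levels in p63alphaKO, was -0.059 (standard error, SE, 0.19; limma adjusted p = 0.925). Its 95% confidence interval on the fold scale, 0.728 to 1.27, contains modest changes in either direction, and the sign of the estimate turned under TMM scaling (0.048) and without WT replicate 3 (0.11).

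Flg2 (ENSMUSG00000049133, chr3:93197278-93221391) encodes filaggrin-2, a filaggrin relative that is also cleaved in the upper epidermis. It was measured at 2344, 2228 and 3079 CPM in the WT libraries and at 2367, 2138 and 2542 CPM in the p63alphaKO libraries. The order of libraries within each group was that of Flg, with replicate 3 highest and replicate 2 lowest, and the groups overlapped. The means were 2550 ± 461 and 2349 ± 203 CPM (SD, n = 3 each), with a log2 fold change of -0.11 (SE 0.16, limma adjusted p = 0.809). The sign turned under upper quartile scaling (0.029) and without WT replicate 3 (0.036).

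Hrnr (ENSMUSG00000041991, chr3:93319749-93333570) encodes hornerin, a glycine- and serine-rich envelope component. Its level was 5231, 5808 and 5883 CPM in WT against 6220, 5671 and 7655 CPM in p63alphaKO. Replicate 2 of p63alphaKO lay inside the WT range and the other two p63alphaKO libraries above it. The means were 5641 ± 357 and 6515 ± 1025 CPM (SD, n = 3 each). The log2 fold change of 0.20 (SE 0.16) did not pass the limma test (adjusted p = 0.601), and its interval on the fold scale ran from 0.909 to 1.45. Its sign was positive in all 17 other settings.

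Rptn (ENSMUSG00000041984, chr3:93393699-93399442, 1 annotated transcript of 3 exons) encodes repetin, an envelope precursor of stratified epithelia. It was counted with 31, 87 and 53 reads in the WT libraries and with 166, 112 and 105 reads in the p63alphaKO libraries, that is 12.08, 19.43 and 16.69 CPM against 46.86, 32.61 and 31.32 CPM. Every p63alphaKO library was above every WT library, and replicate 1 was at once the lowest of its group in WT and the highest in p63alphaKO. Counting error did not bridge the gap, since the exact Poisson 95% interval of the highest WT library ended at 24.0 CPM and that of the lowest p63alphaKO library began at 25.6 CPM. These intervals cover counting error only.

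The mean of Rptn was 16.1 ± 3.71 CPM in WT against 36.9 ± 8.62 CPM in p63alphaKO (SD, n = 3 each), a log2 fold change of 1.15 (SE 0.28, 95% interval 0.55 to 1.76). Its adjusted p of 0.0547 in limma just missed the threshold, and its unadjusted p was rank 141 of the 7464 tested genes. The call depended on the setting. Adjusted p fell under 0.05 with TMM scaling (log2 fold change 1.26, limma adjusted p = 0.0345), with upper quartile scaling (1.28, adjusted p = 0.0295), with genes down to a mean of 1 CPM tested (1.15, adjusted p = 0.0488) and with the count tests of edgeR (1.27, adjusted p = 0.0499) and DESeq2 (1.28, adjusted p = 0.00281). With any single library left out, limma's estimate stayed between 0.97 and 1.29 but its adjusted p lay between 0.0514 and 0.215.

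**Figure D2:**
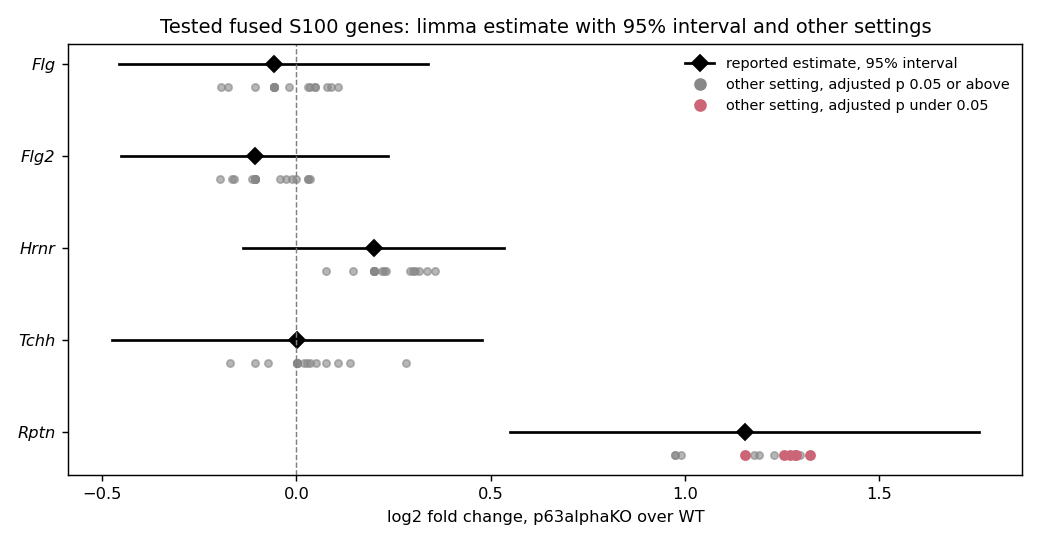
Log2 fold changes (p63alphaKO over WT) of the 5 tested members. Black diamonds with bars are the limma estimates with 95% intervals, and dots are the estimates under the other settings, red where adjusted p was under 0.05. The dots of Flg, Flg2 and Tchh fall on both sides of 0, while those of Rptn lie between 0.97 and 1.32 and are red in 6 settings.

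Trichohyalin is, as given above, a protein of the inner root sheath and medulla of the hair follicle. Tchh (ENSMUSG00000052415, chr3:93442330-93449077, 2 exons) was at 233, 123 and 135 CPM in the WT libraries and at 147, 152 and 175 CPM in p63alphaKO. WT replicate 1 was the highest of all 6 libraries, and the p63alphaKO libraries lay inside the WT range. The means were 164 ± 59.9 and 158 ± 14.9 CPM (SD, n = 3 each), with a log2 fold change of 0.0014 (SE 0.22, limma adjusted p = 0.999). The 95% interval of -0.48 to 0.48 allows changes of either sign, and the estimate ran from -0.17 to 0.28 as single libraries were left out.

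Tchhl1 (ENSMUSG00000027908, chr3:93468754-93471980) encodes a trichohyalin-like protein and was too low to be tested. It had 17, 18 and 0 reads in the WT libraries and 0 reads in each p63alphaKO library, where 3 reads would have been 0.847 to 0.895 CPM. WT replicates 1 and 2, at 6.62 and 4.02 CPM, stood apart from the other 4 libraries, so WT replicate 3 resembled p63alphaKO. All 35 reads of the gene thus came from 2 libraries. With no minimum level, limma gave a log2 fold change of -1.75 (SE 0.63) with an adjusted p of 0.258, so no difference between the genotypes was called.

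Markers of the inner root sheath, where trichohyalin is most abundant, were set beside these values. Of 12 marker genes measured, 4 were tested, and 2 of these were called lower, the sheath keratins Krt25 and Krt71 (beside 1.18% of all tested genes called lower). Krt71 and Foxn1 reached the minimum mean only through the WT libraries, so the tested genes do not stand for the list. With no minimum, 9 of the 12 estimates were negative and 3 positive, with a median of -0.33. Of the 12, 2 were called lower, beside 84 of the 16363 genes tested that way. Krt71 was at 42.08, 25.23 and 23.61 CPM in the WT libraries and at 7.06, 5.24 and 5.37 CPM in p63alphaKO (log2 fold change -2.15, SE 0.36, limma adjusted p = 0.0073). Krt25 was at 46.76, 32.60 and 48.48 CPM in the WT libraries and at 8.75, 18.93 and 11.93 CPM in p63alphaKO (-1.66, SE 0.31, limma adjusted p = 0.014), a call that was lost without p63alphaKO replicate 1 or 3 (largest adjusted p 0.0816).

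Of the 12 markers, 4 separated the groups (Krt25, Krt27, Krt71 and Foxn1) and 8 did not, and Tchh did not either. Among all tested genes, 21.0% separated the groups in either direction and 7.60% were higher in p63alphaKO without overlap. The 4 markers were all lower in p63alphaKO, and these shares leave out genes under the minimum level. Krt27, a sheath keratin under the minimum level that was named after its values were seen, was at 27.67, 11.83 and 8.50 CPM in the WT libraries and at 2.26, 2.33 and 3.58 CPM in p63alphaKO. The summed level of the 12 markers was 127 to 213 CPM in WT against 75.2 to 90.9 CPM in p63alphaKO. In bulk tissue, fewer cells of a type and less RNA per cell cannot be told apart, and the part of follicle content in the values of Tchh and Tchhl1 was not tested.

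**Figure D3:**
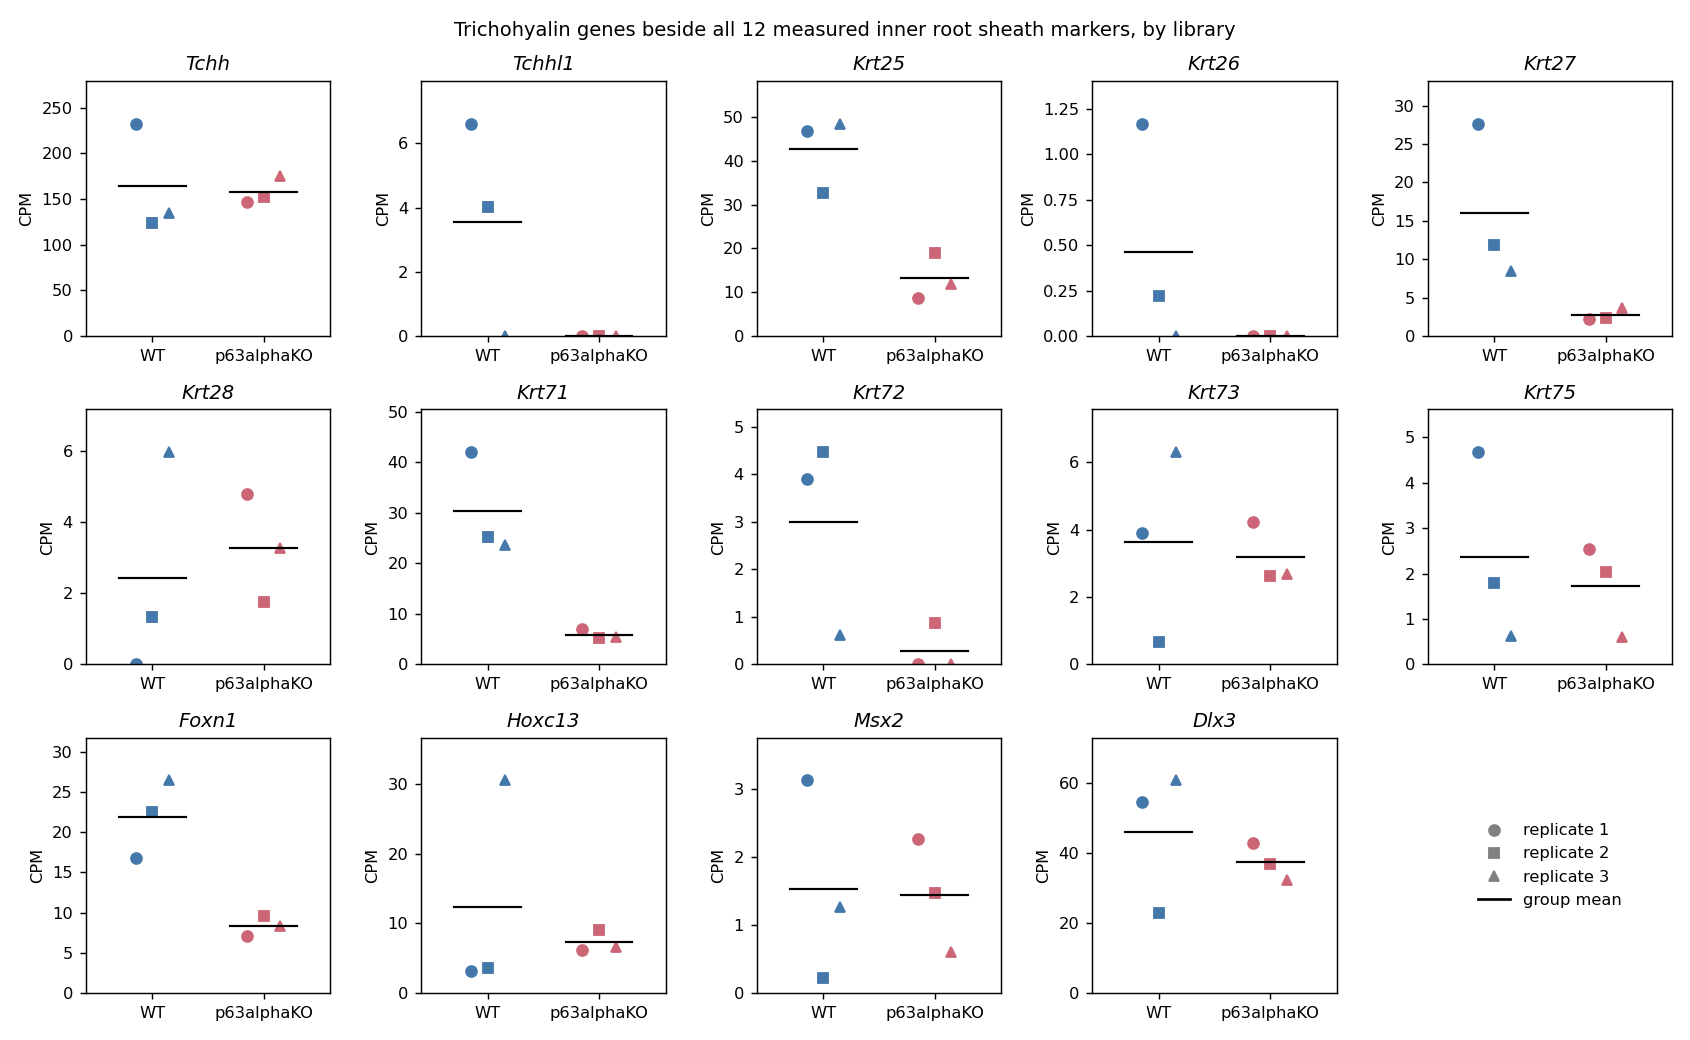
Tchh and Tchhl1 beside all 12 inner root sheath markers measured, in CPM by library on linear axes starting at 0, with WT in blue, p63alphaKO in red, symbols for replicates and lines for group means. The WT points of Krt25, Krt27, Krt71 and Foxn1 all lie above the p63alphaKO points, while Tchh and the other 8 markers overlap, Krt28 with the higher mean in p63alphaKO (3.28 CPM, against 2.44 CPM for WT).

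Crnn (ENSMUSG00000078657, chr3:93144787-93149819) encodes cornulin, a protein of oesophageal and other wet stratified epithelia. It had 6, 6 and 4 reads in WT and 3, 12 and 1 reads in p63alphaKO, or 2.34, 1.34 and 1.26 CPM against 0.85, 3.49 and 0.30 CPM. Both groups summed to 16 reads, and replicate 2 of p63alphaKO held most of its group's reads. At this depth a difference between genotypes was not detectable. The markers of periderm and oral epithelium were low as well, with 0 of 6 tested and sums of 3.90 to 11.8 CPM in WT against 6.27 to 23.2 CPM in p63alphaKO.

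Averaged over the 6 libraries, the order of levels was Flg, Hrnr, Flg2, Tchh, Rptn, Tchhl1, Crnn, in CPM and also per kb of annotated exon. Per kb, the levels were 1386 for Flg, 570 for Hrnr, 118 for Flg2, 27.6 for Tchh and 6.39 for Rptn, in CPM per kb. For each neighbouring pair from Flg down to Tchhl1, the lowest library of the higher gene was above the highest library of the lower gene in CPM, whereas Tchhl1 and Crnn overlapped. Reads taken from 3' ends do not scale with transcript length, so the per-kb values are given only because lengths differ. The sources used here do not say how reads that match several of the near-identical repeats were counted.

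Together the 7 genes took 2.68%, 2.54% and 3.46% of reads in the WT libraries and 2.72%, 2.51% and 3.39% in the p63alphaKO libraries. The mean was 2.89 ± 0.493% in WT and 2.87 ± 0.460% in p63alphaKO (SD, n = 3 each), a difference far below the spread between replicates. Flg made up 70.7 ± 2.91% of the family in WT and 68.4 ± 0.838% in p63alphaKO. Hrnr made up 19.8 ± 2.92% and 22.7 ± 0.166%, and Flg2 8.81 ± 0.0855% and 8.25 ± 0.651%, in the same order of groups.

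Setting each gene against Flg in the same library removes the scaling of libraries. Rptn stood at 0.0637%, 0.113% and 0.0656% of Flg in WT and at 0.255%, 0.191% and 0.133% in p63alphaKO. The groups did not overlap, and the ratio was 2.40-fold higher in p63alphaKO (difference in mean log2 ratio 1.26). Its exact two-sided permutation p of 0.1 was the smallest that 3 libraries against 3 can give, so this test could not reach 0.05 (Benjamini-Hochberg adjusted p = 0.4 over the 4 ratios tested).

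Hrnr stood at 27.6%, 33.7% and 23.1% of Flg in WT and at 33.8%, 33.2% and 32.6% in p63alphaKO. The p63alphaKO libraries were close to one another, and WT replicate 2 was level with them (difference in mean log2 ratio 0.26, exact permutation p = 0.3). Flg2 kept to between 10.8% and 12.9% of Flg in all 6 libraries, with overlapping groups (difference -0.049, exact permutation p = 0.8). Tchh ranged from 0.530% to 1.23% of Flg, both extremes being WT libraries (difference 0.061, exact permutation p = 0.8).

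**Figure D4:**
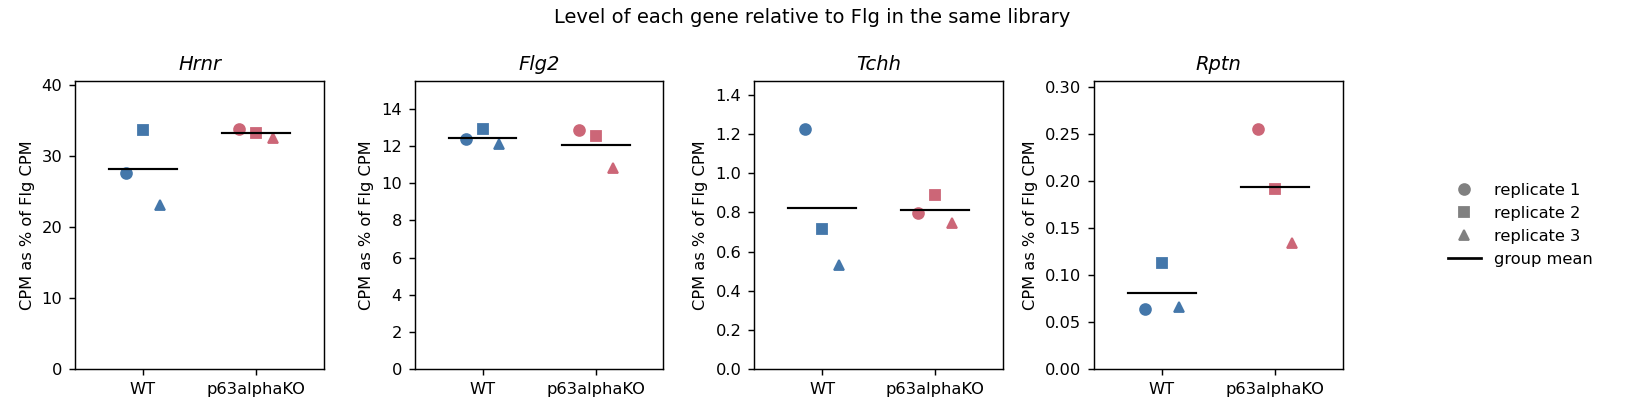
Level of Hrnr, Flg2, Tchh and Rptn as a percentage of Flg in the same library, on linear axes from 0, with WT in blue, p63alphaKO in red, symbols for replicates and lines for group means. Rptn alone of the 4 has no overlap, with WT at 0.0637% to 0.113% and p63alphaKO at 0.133% to 0.255%.

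How alike the members were over the 6 libraries was measured by the root mean square difference of their centred log2 values, where 0 means parallel profiles. Flg and Flg2 were the closest pair (0.086), and Hrnr lay at 0.20 from Flg and at 0.21 from Flg2. Tchh was 0.36 from each of these 3 genes. Rptn was the most distant, at 0.56 from Hrnr, 0.70 from Flg2, 0.71 from Flg and 0.78 from Tchh. It also had the fewest reads of the tested members, 31 to 166 per library. The part of counting error in its distances was not tested.

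Among tested genes outside the family with a mean of at least 50 CPM, the profiles nearest to Flg by the same measure were Plxdc2 (0.079), Fuca1 (0.087) and Macf1 (0.087). Flg2 was nearest to Ap3d1 (0.045), Sptbn1 (0.059) and U2surp (0.060), and Hrnr to Cep170b (0.040), Pnpla1 (0.063) and Ankrd44 (0.064). The nearest to Tchh were Cd63 (0.075), Fndc9 (0.11) and AI661453 (0.12). Rptn, with the fewest reads of the tested members, had no neighbour as close: Rassf9 lay at 0.13, Trp63 at 0.26 and Foxo1 at 0.26.

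Trp63 encodes p63 and is the gene the genotype names. It was among the genes nearest to Rptn only of those with a mean of at least 50 CPM. Neighbours were picked for following Rptn over these same libraries, so their differences between genotypes are no independent support for that of Rptn. Trp63 was at 63.90, 71.68 and 87.21 CPM in the WT libraries and at 143, 146 and 136 CPM in p63alphaKO, with no overlap (log2 fold change 0.93, SE 0.19, limma adjusted p = 0.0192). The call was lost without any 1 of the p63alphaKO libraries (largest adjusted p 0.0998). These reads do not tell p63 isoforms apart, so they are no check of the genotype. Rassf9, which encodes an epidermal Ras-association protein, was at 34.29, 43.54 and 36.83 CPM in the WT libraries and at 98.53, 79.21 and 67.70 CPM in p63alphaKO. As for Rptn, the highest library was p63alphaKO replicate 1 and the lowest WT replicate 1 (log2 fold change 1.07, SE 0.22, limma adjusted p = 0.0212, largest adjusted p 0.118 without a p63alphaKO library).

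The members were set beside their neighbours on the chromosome, without a test of the difference. Within 1000 kb of the start of Flg, 38 other genes were tested, and all 38 estimates lay above 0. Their median was 1.15 on the log2 scale, and 2 were called, beside 1.65% of all tested genes. Over all 7464 tested genes, 3002 estimates were positive and the median was -0.085, and the median of the 5 tested members was 0.0014, with 3 positive. The 36 genes on the Crnn side, where the small proline-rich and late cornified envelope genes lie, had a median of 1.18, and the groups did not overlap for 26 of them, beside 7.60% of all tested genes that were higher in p63alphaKO without overlap. Without WT replicate 3 this median was 0.626. Rptn, at 1.15, was level with that side, and Hrnr, Flg, Flg2 and Tchh were below all of its genes except Ivl, which lay among them. The pair on the Tchhl1 side were the single S100 genes S100a11 (0.15) and S100a10 (0.59).

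**Figure D5:**
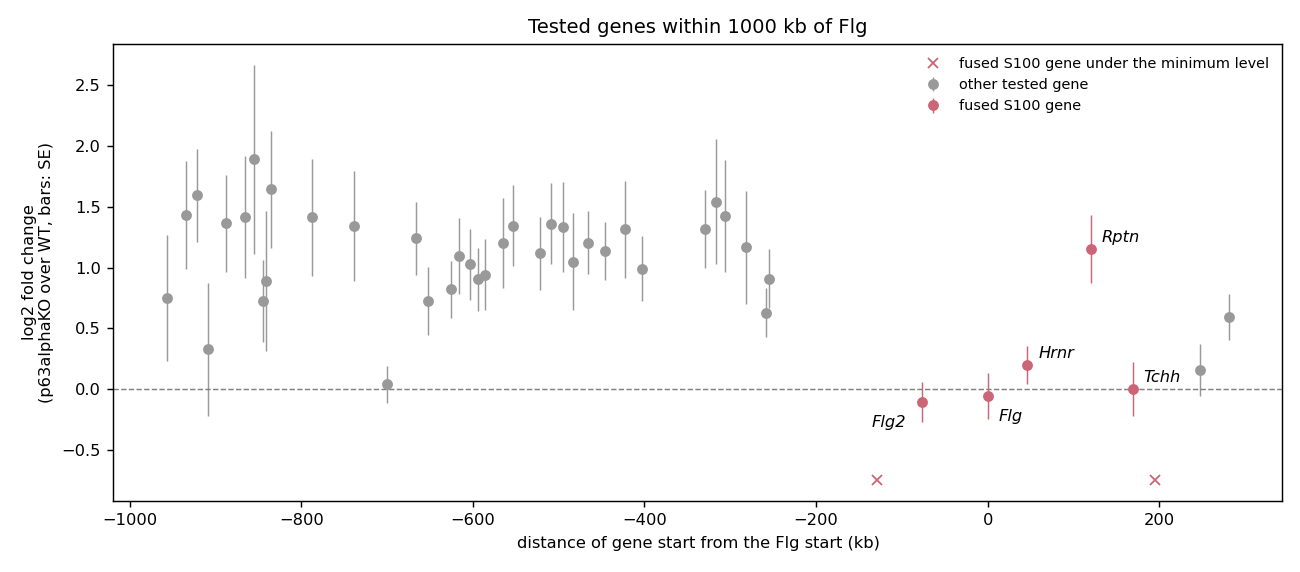
Log2 fold change (p63alphaKO over WT, bars show SE) of each tested gene within 1000 kb of the Flg start, against the distance of its start from that of Flg in kb. Family members are red and other genes grey; the 2 crosses mark Crnn and Tchhl1, which were not tested and have no value on the vertical axis. Flg2, Flg, Hrnr and Tchh sit between -0.11 and 0.20, Rptn at 1.15 is level with the grey genes to the left, and Ivl at 0.038 is the lowest grey gene.

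Other precursors of the cornified envelope (loricrin, involucrin, late cornified envelope, small proline-rich and related genes) were counted as a list. Of 46 listed genes 37 were tested, 36 estimates were positive and 1 negative, and 2 were called higher, beside 0.469% of all tested genes. The median log2 fold change was 1.12, and 0.581 without WT replicate 3. Kprp, a keratinocyte proline-rich protein, averaged 677 CPM in the WT libraries and 1418 CPM in the p63alphaKO libraries (log2 fold change 1.14, SE 0.24, limma adjusted p = 0.026). Lce1k, a late cornified envelope protein, averaged 48.9 and 108 CPM (1.21, SE 0.26, limma adjusted p = 0.0316). Both calls were lost without WT replicate 2 or without any p63alphaKO library (largest adjusted p 0.196 for Kprp and 0.181 for Lce1k). Both were also lost with edgeR and with a minimum mean of 50 CPM, where 0 genes of the list were called. The call of Kprp remained in 9 of the 17 other settings and that of Lce1k in 10. The number of the list's genes called higher was 18 without WT replicate 1, 7 without WT replicate 2, 6 without WT replicate 3 and 0 without any 1 of the p63alphaKO libraries, so the count rests on which libraries are used. The Rptn estimate of 1.15 lay near this list's median, while Hrnr lay above 3 of its 37 tested members (Ivl, Ppl and Evpl) and Flg, Flg2 and Tchh above 1 (Evpl).

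The enzymes and inhibitors that act on filaggrin (proteases, caspase 14, peptidylarginine deiminases, transglutaminases) gave 16 tested of 18 genes, with 11 positive and 5 negative estimates. Their median was 0.29, and 0 were called (1 with DESeq2), beside 1.65% of all tested genes. Asprv1, the retroviral-like aspartic protease that cuts the profilaggrin linker, was at 6813, 6549 and 4891 CPM in the WT libraries and at 7574, 8790 and 10374 CPM in p63alphaKO. Its groups did not overlap, beside 7.60% of all tested genes that were higher in p63alphaKO without overlap. The log2 fold change of Asprv1, 0.55 (SE 0.17), did not pass (limma adjusted p = 0.123). Spink5, the inhibitor of epidermal kallikreins, was at 3641 ± 527 CPM in WT against 4723 ± 417 CPM in p63alphaKO (SD, n = 3 each), also without a call (0.38, SE 0.16, limma adjusted p = 0.247). Casp14, the caspase that helps to degrade filaggrin and was named after its values were seen, was at 1190 ± 192 and 1106 ± 111 CPM (-0.099, limma adjusted p = 0.829).

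Among suprabasal keratins, which filaggrin bundles, 5 of 6 were tested, with 3 positive and 2 negative estimates and a median of 0.14. The one called was Krt77, a suprabasal keratin, beside 0.469% of all tested genes called higher. Krt77 was at 149 ± 4.56 CPM in WT against 557 ± 133 CPM in p63alphaKO (log2 fold change 1.87, SE 0.18, limma adjusted p = 0.000219), a call kept in all 17 other settings. Krt1 (-0.011) and Krt10 (-0.10), the main suprabasal pair, were named after their values were seen and were not called. Of the single S100 genes of the same chromosome region, 7 of 14 listed were tested, with 5 positive and 2 negative estimates. Their median was 0.15, and 0 were called, beside 1.65% of all tested genes. With no minimum, 12 were tested, with 6 positive and 6 negative estimates, a median of 0.050 and 0 called, beside 110 of 16363 genes. The most abundant were S100a11 (log2 fold change 0.15, limma adjusted p = 0.792) and S100a14 (0.12, limma adjusted p = 0.742), and S100a11 turned to -0.077 without p63alphaKO replicate 3.

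Transcriptional regulators of the granular layer were all tested, 18 of 18, with 10 positive and 8 negative estimates and a median of 0.052 (-0.020 without WT replicate 2). The one called was Prdm1, which encodes the repressor Blimp1 of the granular layer, beside 0.469% of all tested genes called higher. It was at 325, 364 and 265 CPM in the WT libraries and at 466, 621 and 513 CPM in p63alphaKO, with no overlap (log2 fold change 0.74, SE 0.17, limma adjusted p = 0.0456). The call remained in 8 of the 17 other settings. It was lost with edgeR, with no minimum level and with a minimum mean of 50 CPM. The call remained in 1 of the 6 fits that left out a library (largest adjusted p 0.200).

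The libraries also differed in genes of the basal epidermal layer and of other cell types and tissues. The part of this in the family's values was not tested. Basal layer genes gave 6 tested, 5 positive and 1 negative, with a median of 0.34. Krt15 was called lower, beside 1.18% of all tested genes. Beside 1.18% of all tested genes called lower, fibroblast markers were called lower in 5 of 5 tested, with sums of 1968 to 4583 CPM in WT against 231 to 533 CPM in p63alphaKO. Skeletal muscle markers were called lower in 4 of 7 tested (349 to 2022 against 45.7 to 77.5 CPM). Lum among the fibroblast markers and Actc1, Myh8, Neb and Ckm among the muscle markers reached the minimum mean only through the WT libraries. With no minimum, all 7 fibroblast and all 8 muscle estimates were negative. Of these, 5 and 3 were called lower, beside 84 of the 16363 genes tested that way. The muscle count rose to 6 when WT replicate 2 was left out and dropped to 2 when p63alphaKO replicate 1 or 3 was. Erythroid markers were called lower in 3 of 4 (1903 to 3440 against 559 to 1766 CPM), but in 0 with TMM, upper quartile scaling, edgeR or DESeq2, and in 0 without WT replicate 1, p63alphaKO replicate 1 or p63alphaKO replicate 2. Melanocyte markers summed to 174 to 293 and 303 to 438 CPM, with 0 of 2 called (1 with DESeq2, with upper quartile scaling or without WT replicate 3). Endothelial markers (5.97 to 35.5 against 2.39 to 4.95 CPM) and immune markers (6.24 to 11.3 against 3.58 to 7.34 CPM) had no tested gene. The fibroblast, muscle, erythroid, melanocyte and endothelial sums did not overlap between groups, while the basal layer and immune sums did. Among the lists above, the sums of other envelope precursors, filaggrin enzymes and inhibitors, and inner root sheath markers did not overlap either. Those of suprabasal keratins, single S100 genes, granular layer regulators and periderm markers overlapped. Rptn did not overlap, beside 21.0% of all tested genes, whereas Flg, Flg2, Hrnr and Tchh overlapped.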

How the data were processed

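Back skin epidermis at E18.5 was profiled in 3 WT and 3 p63alphaKO libraries by 3' digital mRNA sequencing. The labels' fields name different RNA kits, so the kit is not settled here. STAR, HTSeq and mm10 are named in the submitters' processing notes; the sources used here give no versions, annotation, strand setting or use of molecular identifiers. The values deposited by the authors are CPM, since each column sums to 999157 to 999401. All of them (100%) were whole multiples of 1 read within 0.0055 CPM, which gave the reads per library (2564407 to 4474764). A count of 3 reads was 0.670 to 1.17 CPM, for counting error only.

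Genotype was the only term of a two-sided limma-trend fit (limma 3.58.1 in R 4.3.3) to log2(CPM + 1). The 7464 genes averaging 10 CPM or more were tested, with Benjamini-Hochberg adjustment. It called 123 genes, 35 higher and 88 lower; edgeR 4.0.16 on the recovered reads called 82 and DESeq2 1.42.0 called 317. On data simulated for this comparison, with 200 of 7464 genes changed, it called 4% of genes changed 1.5-fold and 42% of those changed 2-fold. It called 100% of those changed 4-fold or 8-fold, and 5.38% of its calls were false. Every simulated gene had the same dispersion, so these rates do not carry over to genes with more spread between libraries. Alternatives were other pseudocounts, filters, scalings, a replicate block and each library left out. Members and lists were chosen with earlier results of these data known. Named genes were the members, up to 4 called genes per list by p (otherwise the highest 2 tested), and the 3 nearest profiles of each tested member. Positions are from GENCODE mouse release 21, and promoters were matched for 7 of 7 members in RefSeq (GRCm38.p6). One file of 6 columns was used, each matched to a library by its name.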

Additional observations from a re-analysis of the deposited data

How the results depend on the processing

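Hrnr kept its sign and stayed uncalled in all 17 settings, and Rptn kept its sign in every setting that tested it. Depth limits Crnn and Tchhl1, which hold at most 18 reads in a library, and 3 libraries a group limit the rest. The sign of Flg turned with TMM (0.048), upper quartile (0.078), edgeR (0.031), DESeq2 (0.047) and edgeR with a minimum mean of 1 CPM (0.090), the last an alternative chosen after seeing the data, and ran from -0.19 to 0.11 with a library left out. Flg2 turned with upper quartile (0.029) and edgeR with that minimum (0.029), and ran from -0.20 to 0.036 with a library left out. Tchh ran from -0.17 to 0.28 with a library left out. The cause was not tested, but TMM and upper quartile scaling moved the median of all tested genes from -0.085 to 0.018 and 0.048.

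Rptn passed the threshold with a minimum mean of 1 CPM (1.15), TMM (1.26), upper quartile (1.28), edgeR (1.27), DESeq2 (1.28) and edgeR with a minimum mean of 1 CPM (1.32). The Flg2 to Flg ratio difference ran from -0.097 to 0.028 and that of Tchh to Flg from -0.21 to 0.39 with a library left out. Genes called numbered 256 (77 higher, 179 lower) with a minimum mean of 1 CPM, 36 (12 and 24) with a minimum of 50 CPM, where fewer genes were tested and Rptn was not among them, and 317 (152 and 165) with DESeq2. Higher calls numbered 69 with upper quartile (64 lower), 48 with TMM (65 lower) and 21 with edgeR (61 lower). With a library left out, 37 to 186 genes were called, 3 to 90 of them higher and 34 to 96 lower. S100a11 ran from -0.077 to 0.34.

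Over the tested genes, same-numbered libraries did not deviate together (correlations of -0.023, 0.066 and -0.11). Flg and Flg2 nevertheless had the same order of replicates in both groups. Such correlations cannot show whether same-numbered libraries were paired or handled together. With the replicate block, 127 genes were called (41 higher, 86 lower), no member was called, and Rptn stood at 1.15 (limma adjusted p = 0.0856).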
